A study of Rattus norvegicus with 12 samples.

Results

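Cell division copies the genome in S phase and shares the copies out in mitosis, and the genes for these steps are switched on in turn. Before S phase, origin factors load a ring-shaped helicase built of the subunits Mcm2 to Mcm7 onto DNA, E2F transcription factors raise the genes for DNA copying and nucleotide supply, and cyclin E drives entry into S phase. Later, cyclin A and cyclin B with the kinase Cdk1, and the transcription factor Foxm1, drive the genes of the spindle, the kinetochores and cytokinesis. In the adult lung few cells divide at any time, and type 2 epithelial cells, macrophages and endothelial cells are known to divide more after injury.

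The 48 genes described here are a list of cell cycle and DNA replication symbols, all with a row among the 30045 gene symbols of the count table. They were split by known function into 22 replication genes of the G1/S step and 26 mitosis genes of the G2/M step. RNA came from a piece of lung of each of 12 male Fischer rats (F344/DuCrl), bought at 3 months of age, 6 of which breathed air and 6 crystalline nanocellulose (CNC), rod-like crystals made from plant cellulose. CNC was given as an aerosol to the whole body, 20 mg/m3 during 6 hours daily on 5 days of each week, until 14 exposure days were complete. The tissue dates from 1 day later. Strand-specific libraries of polyadenylated RNA were sequenced, and the libraries held from 8693259 to 16603697 counts over genes, with no difference between groups found (2-sided exact permutation test, p = 0.745, n = 6 per group). Levels are counts brought to a common library size (CPM) after TMM scaling, which evens out library composition. They are not divided by transcript length and so are compared between rats and not between genes. A gene was called higher or lower at an adjusted p under 0.05 in the edgeR quasi-likelihood fit, adjusted by Benjamini-Hochberg over the 15019 genes tested, and every adjusted p below for a gene is from that test.

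The promoters of the members are shown first because they carry the letters by which the classes are usually told apart, E2F words for G1/S genes and the cell cycle homology region (CHR) for G2/M genes. RefSeq (GRCr8) windows of 300 bases, from 250 before to 50 after a transcription start, were at hand for 36 of the 48 members (38 windows, since Uhrf1 has 3) and not for Aurkb, Ccna2, Ccnd1, Ccne2, Cdc6, E2f1, Foxm1, Mcm4, Racgap1, Rrm2, Tpx2 and Ube2c. The E2F words searched on both strands were TTTCCCGC, TTTCCCGG, TTTCGCGC, TTTCGCGG, TTTGCCGC, TTTGCCGG, TTTGGCGC and TTTGGCGG, which can overlap each other on opposite strands. An E2F word was in 11 of 18 G1/S windows (61.1%), in 2 of 20 G2/M windows and in 4.61% of all 33469 windows of that length. The CHR words TTTGAA and TTCGAA were in 14 of 20 G2/M windows (70.0%), in 3 of 18 G1/S windows (16.7%) and in 19.7% of all windows. CCAAT, the word bound by NF-Y, was in 13 G1/S windows (72.2%), 16 G2/M windows (80.0%) and 37.5% of all windows. These are matches of letters and were not shown to be bound. The windows of the called G1/S and G2/M member of smallest adjusted p that holds its class word follow, with the words in capitals, 5′ to 3′ on the strand of the gene.
Mcm5 (chr19:13488563-13488862, plus strand, E2F words): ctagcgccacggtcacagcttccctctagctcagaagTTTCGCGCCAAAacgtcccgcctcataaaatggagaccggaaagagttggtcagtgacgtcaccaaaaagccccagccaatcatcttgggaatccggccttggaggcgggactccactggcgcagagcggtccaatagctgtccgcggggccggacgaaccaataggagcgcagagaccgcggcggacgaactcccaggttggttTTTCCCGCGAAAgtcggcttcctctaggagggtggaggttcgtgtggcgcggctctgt
Ect2 (chr2:111966577-111966876, minus strand, CHR words): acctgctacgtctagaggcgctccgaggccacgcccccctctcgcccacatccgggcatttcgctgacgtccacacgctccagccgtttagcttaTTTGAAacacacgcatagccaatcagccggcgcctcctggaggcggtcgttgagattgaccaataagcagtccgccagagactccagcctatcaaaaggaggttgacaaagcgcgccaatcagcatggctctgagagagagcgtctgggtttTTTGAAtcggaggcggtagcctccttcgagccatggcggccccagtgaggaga

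The other called members with a class word are shown by the word nearest to the start, in capitals with 10 bases on either side, so that the shared letters can be compared. Mcm7, which was not called, is added because its E2F word is the same as that of called members. Of the called members with a window, Tk1, Pcna and Rrm1 held no E2F word and Kif11 no CHR word.
Mcm6 (chr13:42404470-42404497, minus strand): tctgcttttgGCGCGAAAttagcgtgtg
Mcm3 (chr9:30733735-30733762, minus strand): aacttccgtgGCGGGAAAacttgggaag
Gins1 (chr3:160184889-160184916, plus strand): agcctatttgGCGCCAAAgagaggagct
Uhrf1 (chr9:1223077-1223104, plus strand): ccgagtcgggTTTCGCGCgccctggcgt
Mcm2 (chr4:122918087-122918114, minus strand): cccggttttcGCGCGAAAacccgtggca
Mcm10 (chr17:78175372-78175399, plus strand): agttgtaattTTTGGCGGgatccggtgt
Mcm7 (chr12:22163213-22163240, minus strand): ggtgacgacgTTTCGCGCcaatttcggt
Cdk1 (chr20:19265267-19265292, plus strand): ccgcggtgagTTTGAAactgctggca
Mki67 (chr1:199952677-199952702, minus strand): gccgttttcgTTTGAAttgggcgggc
Prc1 (chr1:143659453-143659478, plus strand): tccggctcggTTTGAAttccgcgggg
Plk1 (chr1:186147654-186147679, plus strand): cagcgctgcgTTTGAAttcggggagg

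After CNC, 14 of the 22 replication genes rose and 1, the cyclin D1 gene Ccnd1, fell, while 6 of the 26 mitosis genes rose and 0 fell. Over all genes tested, 13.2% were called higher and 11.4% lower (24.6% in either direction), against 63.6% and 4.55% of the replication genes and 23.1% and 0% of the mitosis genes. All 48 members passed the filter on low counts. The changes were small, with a median log2 fold change of 0.33 for the replication genes and 0.31 for the mitosis genes, against -0.0026 for all genes tested. The estimate was above 0 for 47 of the 48 members (49.4% of all genes tested), and for 46 with upper-quartile scaling or library size alone, where that of Mcm7 fell below 0. The medians of the classes thus differed by 0.03. The difference in the number of calls stood beside a larger median standard error in the mitosis genes (0.15 against 0.11). The mitosis genes also had fewer counts (median 6.00 against 10.3 CPM), where CPM measures counts and does not compare expression between genes. Whether the classes differ in response was not tested.

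**Figure D1:**
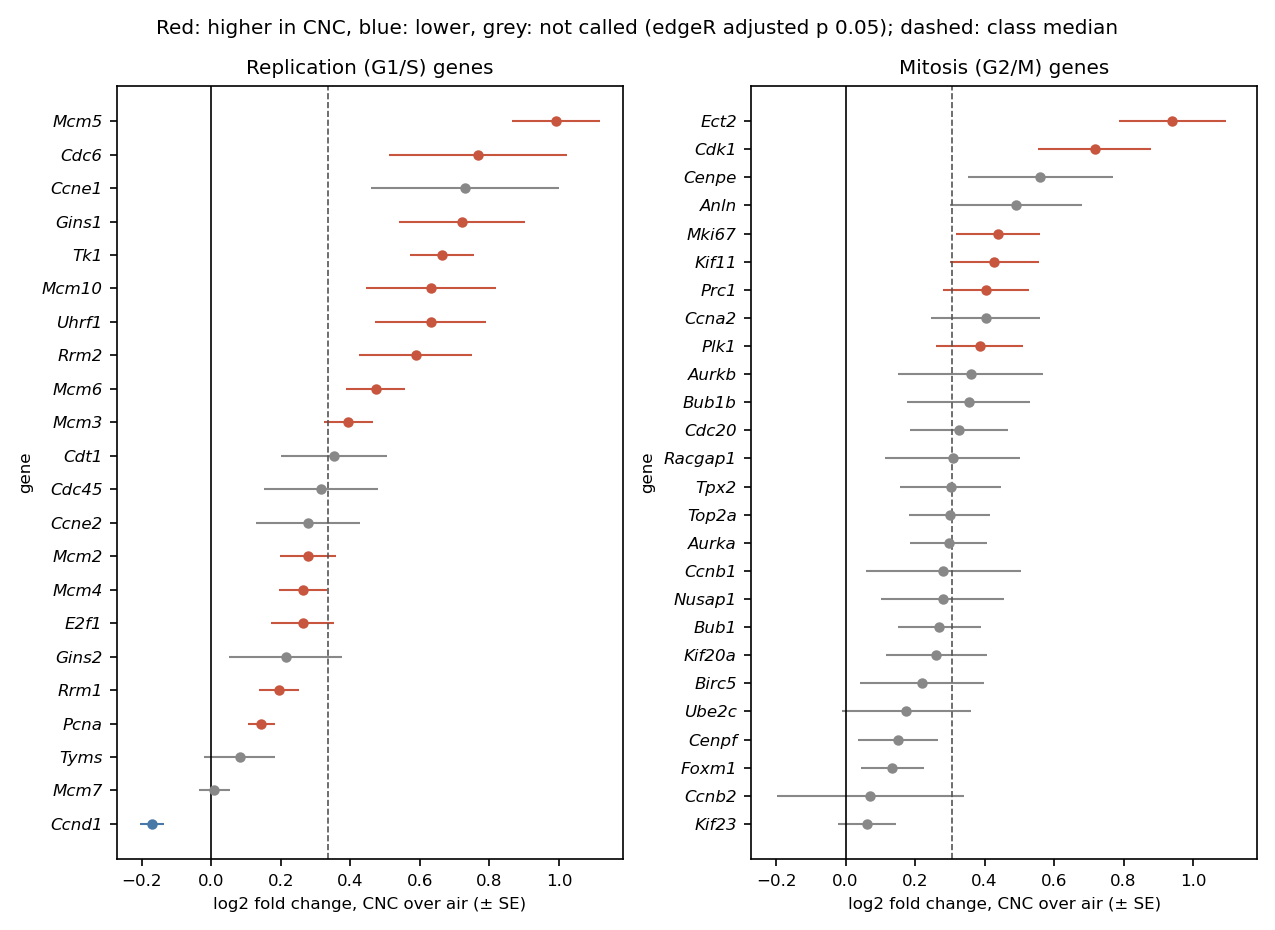
Log2 fold change of each of the 48 genes, CNC over air, with its standard error (horizontal axis), for the 22 replication genes on the left and the 26 mitosis genes on the right. Red points are genes called higher, blue lower and grey not called, and the dashed lines mark the class medians of 0.33 and 0.31: 47 of the 48 points lie to the right of 0.

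Adding the leading component of 14 circadian clock genes to the fit ended nearly all calls of members. The clock value of the air rats ran from 1.98 to 5.14 apart from -1.24 in air replicate 4, and that of the CNC rats ran from -4.38 to -1.2, so that it and the exposure nearly coincide. In that fit 0 of 22 replication genes and 1 of 26 mitosis genes (Ect2) were called. The class medians were then 0.32 and 0.31, nearly those without the covariate, and the median standard errors rose to 0.21 and 0.30. Estimates of single members moved in both directions under these medians. That of Cdc6 went from 0.77 to 0.17 and that of Kif11 from 0.43 to 0.096. That of Cdk1 went from 0.72 to 0.93 and that of Rrm2 from 0.59 to 0.83. The clock and the exposure cannot be told apart here.

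Most genes that load and start the replicative helicase rose. Of the 12 licensing and helicase genes 8 were called higher (66.7%, against 13.2% of all genes tested) and 0 lower (against 11.4%). Their median log2 change was 0.37. The helicase subunit gene Mcm5 had the largest change of all members: it ran from 5.91 through a median of 7.28 to 10.4 CPM in air and from 12.8 through 15.4 to 18 CPM in CNC. The groups did not overlap, as for 6.82% of all genes tested on the higher side, and Mcm5 changed 1.99-fold (log2 fold change 0.99 ± 0.13 SE, adjusted p = 4.2e-05, n = 6 per group). Mcm6 ran from 16.1 through 17.7 to 19.5 CPM in air and from 19.9 through 24.7 to 28.9 CPM in CNC, again without overlap (1.39-fold, adjusted p = 0.000781). Mcm3 ran from 15.7 through 16.5 to 19.6 CPM in air and from 19.8 through 22.5 to 24.9 CPM in CNC, a narrow gap between the groups (1.31-fold, adjusted p = 0.000792). Mcm2 and Mcm4 rose less, 1.21-fold and 1.2-fold (adjusted p = 0.0202 and 0.0105), with 3 and 5 of the 6 CNC rats above every air rat.

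Mcm7, the remaining subunit of the ring, was not called. It ran from 43.5 through 47.8 to 50.1 CPM in air and from 43.6 through 47.7 to 52.1 CPM in CNC, and the groups covered the same range (log2 fold change 0.0087 ± 0.046 SE, adjusted p = 0.923). Within a rat the log2 ratio of Mcm5 to Mcm7 had a mean of -2.65 ± 0.30 in air and -1.66 ± 0.22 in CNC (SD, n = 6 per group). Mcm7 was taken as the denominator after its values were seen, so that the ratio restates the calls above and is given as a description, with no test.

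**Figure D2:**
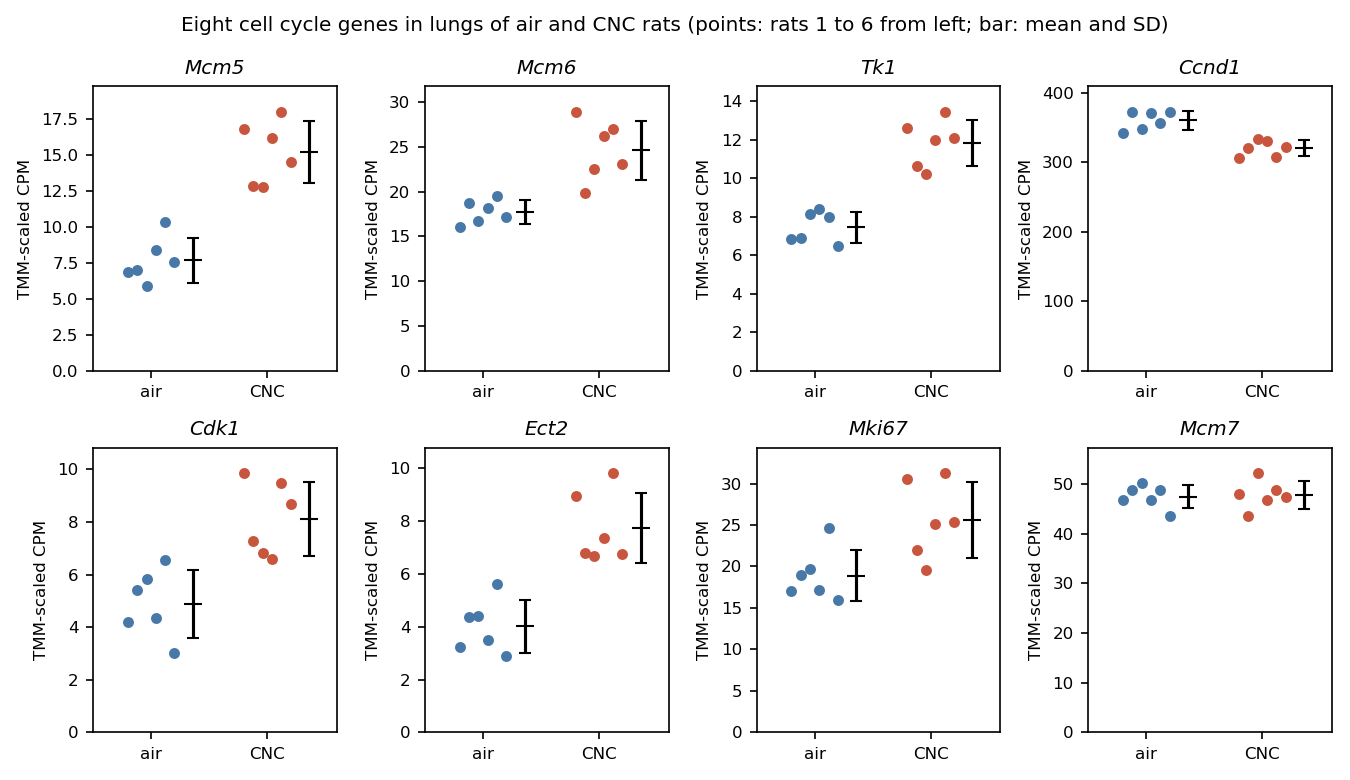
Level in TMM-scaled CPM of 8 genes in each rat (points, replicates 1 to 6 from left to right) with the mean and SD of the group (bar). Mcm5, Mcm6, Tk1, Cdk1 and Ect2 lie higher in all 6 CNC rats than in any air rat, Ccnd1 lies lower in all 6, Mki67 overlaps through air replicates 3 and 5, and Mcm7 covers the same range in both groups.

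Of 6 genes that bring the helicase to origins and activate it, all were measured at low levels. Gins1, Mcm10 and Cdc6 were called higher, as were 13.2% of all genes tested, and Cdt1, Cdc45 and Gins2 were not called. Gins1, a subunit of the GINS complex that completes the active helicase, ran from 1.37 through 1.57 to 2.38 CPM in air and from 1.99 through 2.78 to 3.50 CPM in CNC. Only air replicate 5 reached the CNC range, and Gins1 rose 1.65-fold (log2 fold change 0.72 ± 0.18 SE, adjusted p = 0.00872). Mcm10, which helps to activate the helicase, ran from 1.67 through 2.03 to 3.04 CPM in air and from 2.76 through 3.11 to 5.02 CPM in CNC. It rose 1.55-fold (adjusted p = 0.0214), a call lost without air replicate 1 or CNC replicate 5 (highest adjusted p = 0.0525). Cdc6, which loads the helicase, ran from 0.58 through 1.43 to 1.76 CPM in air and from 1.18 through 2.33 to 3.64 CPM in CNC, with 5 CNC rats above every air rat. Its rise of 1.70-fold (adjusted p = 0.0392) rested on few counts and was lost when any of 8 of the 12 rats was left out (highest adjusted p = 0.106). The loader Cdt1 (log2 fold change 0.35 ± 0.15 SE, adjusted p = 0.11), the helicase partner Cdc45 (0.32 ± 0.16, adjusted p = 0.185) and the GINS subunit Gins2 (0.21 ± 0.16, adjusted p = 0.379) had positive estimates and were not called.

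Pcna, the sliding clamp of the polymerases, and Uhrf1, which guides the copying of DNA methylation, rose by different amounts. Pcna ran from 57.4 through 59.5 to 63.8 CPM in air and from 62.2 through 66.3 to 71.6 CPM in CNC, and rose 1.11-fold (adjusted p = 0.0141). Uhrf1 ran from 3.03 through 4.62 to 4.94 CPM in air and from 5.29 through 6.24 to 8.68 CPM in CNC, with no overlap, and rose 1.55-fold (log2 fold change 0.63 ± 0.16 SE, adjusted p = 0.00881). The Uhrf1 gene overlaps the protein-coding gene Arrdc5 in RefSeq, and the strand setting of the counting is not given in the sources used here.

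Of the 4 genes of nucleotide supply 3 rose (75%, against 13.2% of all genes tested). Tk1, the S-phase thymidine kinase, ran from 6.49 through 7.44 to 8.4 CPM in air and from 10.2 through 12.1 to 13.5 CPM in CNC. Every CNC rat lay above every air rat, and Tk1 rose 1.58-fold (log2 fold change 0.66 ± 0.092 SE, adjusted p = 9.16e-05). Rrm2, the S-phase subunit of ribonucleotide reductase, ran from 3.03 through 3.86 to 6.18 CPM in air and from 5.15 through 6.30 to 7.40 CPM in CNC and rose 1.5-fold (adjusted p = 0.0148), while its partner Rrm1 rose 1.14-fold (adjusted p = 0.0202). The groups overlapped in both, in Rrm2 through air replicate 5. The Rrm2 gene overlaps the protein-coding gene Cys1 in RefSeq. Tyms, thymidylate synthase, was not called (log2 fold change 0.08 ± 0.10 SE, adjusted p = 0.6253), with medians of 11.5 CPM in air and 11.3 CPM in CNC.

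The genes that govern entry into S phase moved in both directions. Ccnd1, the cyclin that starts the G1 kinases in response to growth signals, was the only member called lower. It ran from 342.6 through 363.4 to 372.3 CPM in air and from 306.3 through 320.7 to 333.3 CPM in CNC, and all 6 CNC rats lay below every air rat, as for 4.7% of all genes tested on the lower side. The fall was 1.13-fold (log2 fold change -0.17 ± 0.034 SE, adjusted p = 0.00167). E2f1, a transcription factor of the S-phase genes, ran from 7.70 through 9.49 to 12.0 CPM in air and from 10.7 through 11.5 to 12.4 CPM in CNC. Its rise of 1.2-fold (adjusted p = 0.0442) was lost when any of 10 of the 12 rats was left out (highest adjusted p = 0.0918) and with upper-quartile scaling or library size alone. The cyclin E genes were not called: Ccne1 had a log2 fold change of 0.73 ± 0.27 SE (adjusted p = 0.0619) at medians of 0.74 and 1.43 CPM, and Ccne2 one of 0.28 ± 0.15 SE (adjusted p = 0.201). All 6 CNC rats lay above the air median in both, as they did for the uncalled mitosis gene Ccnb2 (log2 fold change 0.07, adjusted p = 0.887).

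**Figure D3:**
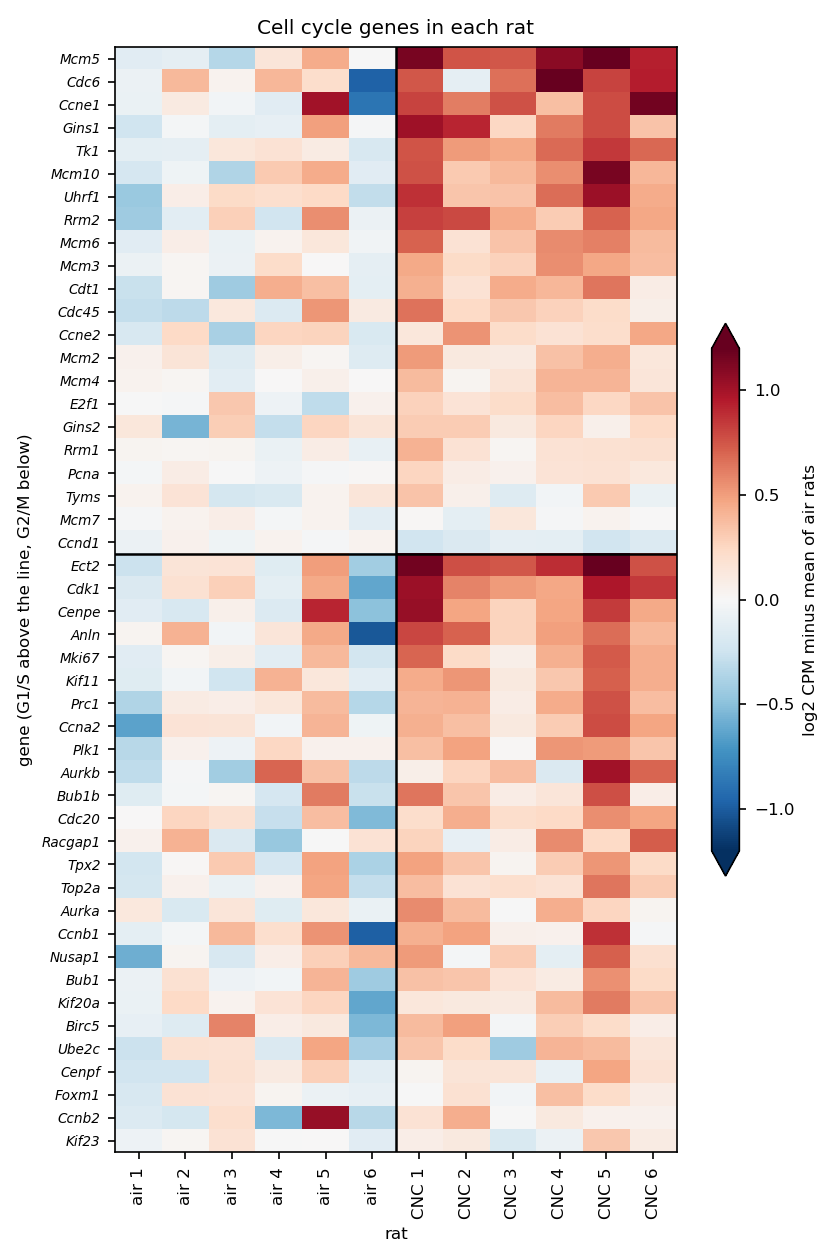
Log2 CPM of each of the 48 genes (rows) minus the mean of the air rats, in each of the 12 rats (columns), with the scale ending at -1.2 and 1.2. Red cells fill most of the CNC columns in both classes, the column of air replicate 5 is red in most mitosis rows, and the row of Ccnd1 is blue in CNC.

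Among the 26 mitosis genes 6 rose and 0 fell, 23.1% in either direction, near the 24.6% of all genes tested. On the higher side alone the share of all genes tested was 13.2%. Ect2, which activates the contractile ring in cytokinesis, ran from 2.90 through 3.94 to 5.61 CPM in air and from 6.67 through 7.07 to 9.80 CPM in CNC. The groups did not overlap, and Ect2 rose 1.92-fold (log2 fold change 0.94 ± 0.15 SE, adjusted p = 0.000373). It was also the member whose call held with the clock covariate (log2 fold change 1.14, adjusted p = 0.045). Cdk1, the kinase that drives entry into mitosis, ran from 3.02 through 4.87 to 6.56 CPM in air and from 6.59 through 7.97 to 9.84 CPM in CNC, and the lowest CNC rat lay just above air replicate 5. Cdk1 rose 1.64-fold (log2 fold change 0.72 ± 0.16 SE, adjusted p = 0.00426). Of the 26 mitosis genes, Ect2 and Cdk1 were the ones whose groups did not overlap. That share was near the 6.82% of all genes tested on the higher side.

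Mki67, the widely used marker of dividing cells, rose 1.35-fold. It ran from 16.0 through 18.1 to 24.6 CPM in air and from 19.6 through 25.2 to 31.2 CPM in CNC, and 4 CNC rats lay above every air rat (log2 fold change 0.44 ± 0.12 SE, adjusted p = 0.0146). The spindle motor gene Kif11 rose 1.35-fold (adjusted p = 0.0233) and Prc1, which bundles microtubules of the central spindle, 1.32-fold (adjusted p = 0.0259). The Kif11 call was lost without air replicate 1 or CNC replicate 5 (highest adjusted p = 0.0556), and the Prc1 call without air replicate 1, air replicate 6 or CNC replicate 5 (highest adjusted p = 0.0613). Plk1, a kinase of many mitotic steps, rose 1.31-fold (adjusted p = 0.0346), from a median of 3.71 to one of 4.84 CPM, a call lost without air replicates 1, 2 or 3 or CNC replicates 1, 2, 4 or 5 in turn (highest adjusted p = 0.0791). Plk1 and Kif11 overlap the protein-coding genes Ern2 and Ide.

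The other 20 mitosis genes were not called, with log2 fold changes from 0.06 for the central spindle motor Kif23 (± 0.082 SE, adjusted p = 0.648) to 0.56 for the kinetochore motor Cenpe (± 0.21, adjusted p = 0.0625). The checkpoint genes Bub1 (0.27 ± 0.12, adjusted p = 0.119) and Bub1b (0.35 ± 0.18, adjusted p = 0.163), the activator Cdc20 of the anaphase-promoting complex (0.33 ± 0.14, adjusted p = 0.109) and its ubiquitin-conjugating enzyme Ube2c (0.17 ± 0.19, adjusted p = 0.548) were all of this kind. So were cyclin A2, Ccna2 (0.40 ± 0.16, adjusted p = 0.0742), the B cyclins Ccnb1 (0.28 ± 0.22, adjusted p = 0.405) and Ccnb2 (0.07 ± 0.27, adjusted p = 0.887), and Foxm1 (0.13 ± 0.091, adjusted p = 0.32). Top2a, which untangles DNA, had 0.30 ± 0.12 (adjusted p = 0.0765), the kinase Aurka 0.30 ± 0.11 (adjusted p = 0.0612) and the ring protein Anln 0.49 ± 0.19 (adjusted p = 0.0713). The kinetochore protein Cenpf had 0.15 ± 0.11 and the passenger subunit Birc5 0.22 ± 0.18. For the cytokinesis motor Kif20a the value was 0.26 ± 0.15, for Racgap1, a partner of Ect2, 0.31 ± 0.19, and for the spindle proteins Nusap1 and Tpx2 0.28 ± 0.18 and 0.30 ± 0.14.

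The same rats were often the extremes of their group. Within the air group, replicate 5 was the highest rat in 17 of the 26 mitosis genes and replicate 6 the lowest in 15. Within the CNC group, replicate 5 was the highest in 16 and replicate 3 the lowest in 16. Of the 22 replication genes, air replicate 5 was the highest air rat in 11 and CNC replicate 1 the highest CNC rat in 9. The mean log2 difference of the mitosis genes from the air mean ran from -0.32 through 0.03 to 0.36 in air and from 0.13 through 0.33 to 0.61 in CNC, so that air replicate 5 lay above 4 of the CNC rats. That of the replication genes ran from -0.13 through -0.01 to 0.23 in air and from 0.28 through 0.38 to 0.53 in CNC, without overlap. The count of mitosis genes called was 13 of 26 without air replicate 5, and 3 of 26 without air replicate 1 or without CNC replicate 5.

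**Figure D4:**
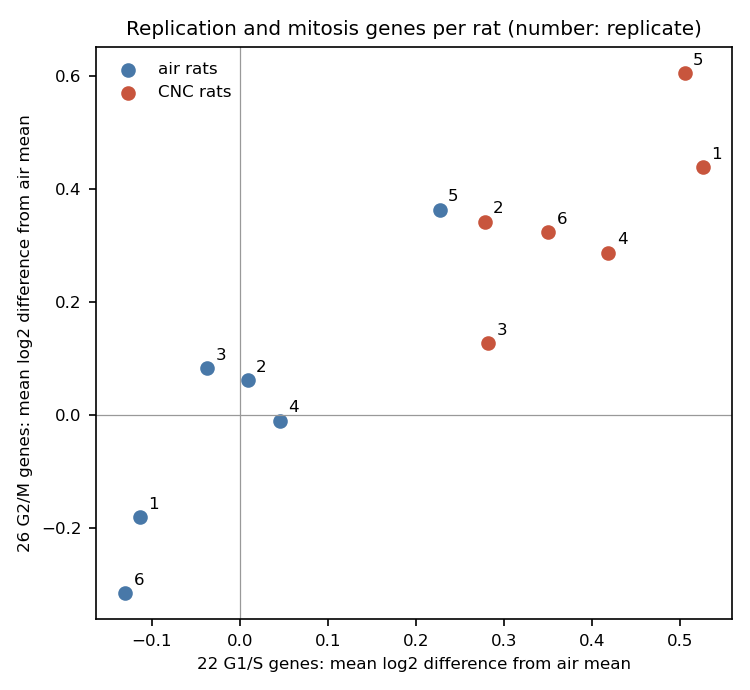
Mean log2 difference from the air mean over the 22 replication genes (horizontal axis) and over the 26 mitosis genes (vertical axis) in each rat, numbered by replicate. The CNC rats lie between 0.28 and 0.53 on the horizontal axis, right of every air rat, while on the vertical axis air replicate 5 at 0.36 lies among the CNC rats.

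Aurkb, the kinase of the chromosomal passenger complex, ran from 67.3 through 81.1 to 146.8 CPM in air, highest in replicate 4, and from 79.7 through 112.3 to 181.6 CPM in CNC, highest in replicate 5, and was not called (log2 fold change 0.36 ± 0.21 SE, adjusted p = 0.239). With the clock covariate its estimate turned to -0.25 (adjusted p = 0.746). Its level rose and fell with the summed level of the motile cilium genes Foxj1, Dnah5, Tekt1 and Ccdc113, a comparison made after the values were seen. The permutation p values given below for Pearson's r and Spearman's rho do not allow for that choice. They are given as a description and not as a test. Over the 12 rats Pearson's r was 0.87 (permutation p = 2e-04, adjusted 0.0012 over 5 genes compared) and Spearman's rho 0.85 (permutation p = 8e-04, adjusted 0.00415). Within air r was 0.98 (exact permutation p = 0.00417, n = 6) and within CNC 0.88 (exact permutation p = 0.0208, n = 6), and over all rats it was 0.75 without air replicate 4 and CNC replicate 5, those farthest from the median of the cilium genes. For Mki67 r over the 12 rats was 0.18 (rho 0.15), 0.14 without the same 2 rats, and for Cdk1 0.24 (rho 0.24), Plk1 0.22 (rho 0.08) and Aurka -0.29 (rho -0.25), with permutation adjusted p of 0.57 for r in each and from 0.764 to 0.799 for rho. Within air r was 0.72 for Plk1 (exact permutation p = 0.139, n = 6), and the other 21 mitosis genes were not compared with the cilium sum. The cilium sum itself had a mean of 71.3 ± 15.2 CPM in air rats and 73 ± 14 CPM in CNC rats (SD, exact permutation p = 0.838, n = 6 per group). The source of the reads counted under the symbol Aurkb was not tested.

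**Figure D5:**
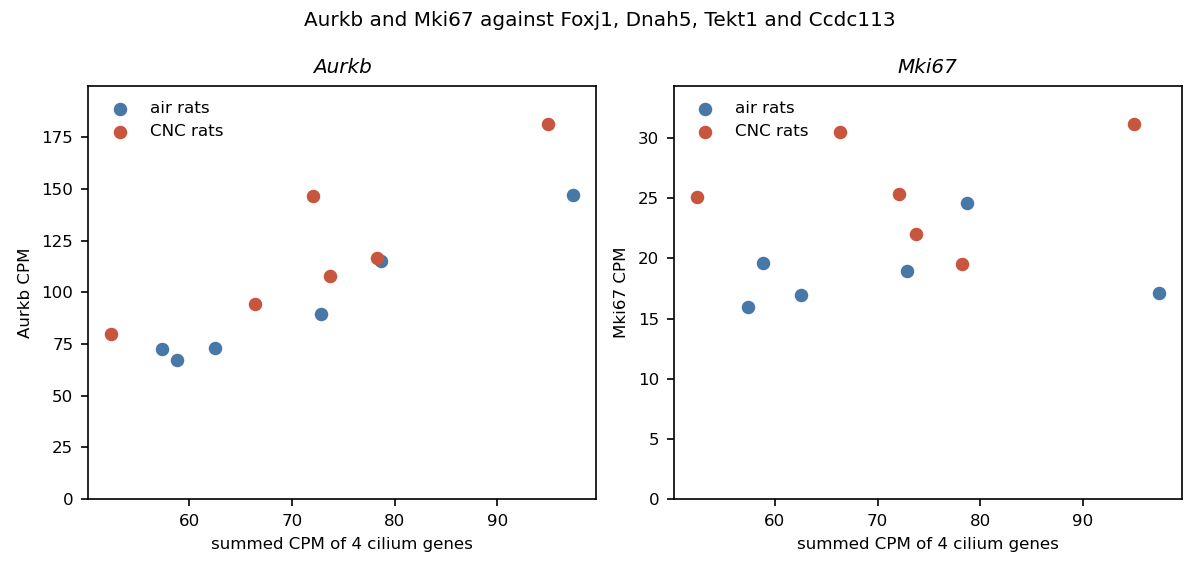
CPM of Aurkb (left) and Mki67 (right) against the summed CPM of the cilium genes Foxj1, Dnah5, Tekt1 and Ccdc113, with 1 point per rat, blue for air and red for CNC. The Aurkb points rise along the horizontal axis within both groups (r 0.98 in air and 0.88 in CNC), and the Mki67 points do not line up with it (r 0.18 over the 12 rats).

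Beyond the 48 members, 13 of 46 other replication genes tested were called higher (28.3%, against 13.2% of all genes tested) and 1 lower (2.17%, against 11.4%), and the median log2 change was 0.14. In either direction this was 30.4%, near the 24.6% of all genes tested. The origin recognition subunit Orc1 rose 2.63-fold, from 0.59 ± 0.20 to 1.57 ± 0.30 CPM (SD, n = 6 per group, adjusted p = 0.000327), and the chromatin assembly subunit Chaf1b rose 2.11-fold (adjusted p = 0.000471). Atad2, a chromatin ATPase, rose 1.24-fold and the histone mRNA binder Slbp 1.22-fold, and the maintenance methyltransferase Dnmt1, which Uhrf1 guides, rose 1.08-fold (adjusted p = 0.0267). The Dnmt1 call was lost with upper-quartile scaling, with library size alone and without air replicate 6 or CNC replicate 1 (highest adjusted p = 0.0629 without a rat). Clspn, a replication checkpoint adaptor, was the member of this list that fell, from 8.61 ± 0.81 to 4.97 ± 0.57 CPM (1.73-fold, adjusted p = 3.31e-05). With the clock covariate Orc1, Chaf1b, Atad2, Slbp, Dnmt1 and Clspn were not called (adjusted p from 0.0574 for Clspn to 0.289 for Slbp).

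Of 74 other mitosis genes tested, 24 were called higher (32.4%, against 13.2% of all genes tested) and 2 lower (2.7%, against 11.4%), with a median log2 change of 0.32. The centriole gene Stil rose 2.06-fold, from 1.61 ± 0.24 to 3.32 ± 0.99 CPM (adjusted p = 0.00139). The cytokinesis motor Kif14 rose 1.89-fold, from 0.89 ± 0.082 to 1.71 ± 0.34 CPM (adjusted p = 0.00134). Both were at low levels (SD, n = 6 per group). Cyclin F, Ccnf, rose 1.31-fold and the spindle protein Tacc3 1.22-fold. The chromosome motor Kif4a fell 1.36-fold (adjusted p = 0.00285) and the microtubule regulator Stmn1 1.16-fold (adjusted p = 0.00291). Kif4a went from 20.7 ± 1.55 to 15.2 ± 2.34 CPM and Stmn1 from 98.0 ± 1.41 to 84.4 ± 6.90 CPM (SD, n = 6 per group). With the clock covariate Stmn1 was called (adjusted p = 0.0376), and Kif4a, Stil, Kif14, Ccnf and Tacc3 were not.

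Upstream of S phase, a list of 13 tested genes held D cyclins, G1 kinases and E2F factors, with Myc and Cdc25a among the others. Of these 13, 2 were called, both higher (15.4%, near the 13.2% of all genes tested). The called genes were Myc and Cdc25a, and no D cyclin, G1 kinase or E2F factor of the list was called. Myc, a transcription factor of growth, rose 1.31-fold, from 29.5 ± 1.67 to 38.6 ± 2.57 CPM (SD, n = 6 per group, adjusted p = 6.93e-05), and the phosphatase Cdc25a 1.2-fold (adjusted p = 0.00733). The D cyclins Ccnd2 (log2 fold change -0.03 ± 0.073 SE, adjusted p = 0.797) and Ccnd3 (-0.05 ± 0.042, adjusted p = 0.421) and the kinases Cdk4 (0.05 ± 0.037, adjusted p = 0.344) and Cdk2 (-0.02 ± 0.055, adjusted p = 0.816) were not called. Ccnd2 was called with the clock covariate, as higher (0.34, adjusted p = 0.0481). In that fit Myc and Cdc25a were not called (adjusted p = 0.0746 and 0.528).

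Of 21 tested inhibitor and quiescence genes 5 fell (23.8%, against 11.4% of all genes tested) and 2 rose (9.52%, against 13.2%). Cdkn1c, which encodes the Cdk inhibitor p57, fell 1.45-fold, from 25.8 ± 3.07 to 17.8 ± 1.78 CPM (SD, n = 6 per group, adjusted p = 0.000228). The Rb-related gene Rbl2 fell 1.11-fold (adjusted p = 0.00216), the Cdk inhibitor Cdkn1b 1.1-fold (adjusted p = 0.0105) and Ccng2, a cyclin of resting cells, 1.08-fold (adjusted p = 0.0284). Cdkn1a, which encodes the Cdk inhibitor p21, fell 1.14-fold (adjusted p = 0.0423). The calls of Ccng2 and Cdkn1a were lost when any of 6 and 8 of the 12 rats was left out (highest adjusted p = 0.0705 and 0.0995). The cyclin G gene Ccng1 rose 1.16-fold (adjusted p = 0.000838). With the clock covariate Cdkn1c and Cdkn1b were called lower (adjusted p = 0.0184 and 0.0286), and Rbl2, Ccng2, Cdkn1a and Ccng1 were not called.

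Markers of other cells also differed between the groups. The summed alveolar macrophage markers (9 of 10 with a row) ran from 514.6 to 632.6 CPM in air and from 782 to 1138 CPM in CNC, the neutrophil markers (10 of 10) from 169 to 273.8 and from 441.6 to 704 CPM, and the alveolar type 2 markers (10 of 10) from 23526 to 30698 and from 31206 to 38254 CPM. Endothelial markers (10 of 10) ran from 5350 to 6231 CPM in air and from 4497 to 5068 CPM in CNC, and erythroid markers (9 of 10) from 2463 to 3179 and from 1675 to 2248 CPM. Each of these 5 sums gave an exact permutation adjusted p of 0.00469 over 13 lists, while T and NK cell markers (11 of 12, from 194.7 to 271.1 and from 202.3 to 223.8 CPM) and B and plasma cell markers (9 of 10, from 43.5 to 70.4 and from 50.5 to 62.6 CPM) were not called (exact permutation adjusted p = 0.366 and 0.662). Monocyte markers (8 of 10) ran from 427.9 to 477.5 and from 378.7 to 482.9 CPM (exact permutation adjusted p = 0.516). Fibroblast markers (9 of 10, from 3955 to 4915 and from 3827 to 4216 CPM) and airway markers (10 of 10, from 4907 to 6590 and from 4392 to 5613 CPM) had lower sums in CNC (exact permutation adjusted p = 0.0313 for each), as had adipocyte markers (10 of 10, from 131.4 to 163.5 and from 92.8 to 116.2 CPM; exact permutation adjusted p = 0.00469). Of 7 airway genes tested singly 1 was called lower, with a median log2 change of -0.03 and 3 estimates above 0. Of 6 adipocyte genes tested singly 2 were called lower and 1 higher. Of 8 monocyte genes 2 were called higher and 2 lower, so that these sums do not stand for every gene in them. Over all genes tested 13.2% were called higher and 11.4% lower. Heart muscle markers (10 of 10) ran from 13.7 to 439 and from 13.5 to 128 CPM and were highest in air replicates 4 and 5 (exact permutation adjusted p = 0.295). Marco of the macrophage list and Ucp1 of the adipocyte list had 0 counts in every rat. Their part in the rise of division genes was not tested. In a piece of whole lung a change in the number of dividing cells and a change in RNA per cell cannot be told apart, nor can the type of cell that divides be named.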

How the data were processed

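Per the labels' protocols, total RNA from a piece of lung of 12 rats was made into stranded mRNA libraries with 12 PCR cycles. Tools listed in the submitters' processing notes were HISAT2 2.1.0, HTSeq 0.11.2, Trimmomatic 0.35, SAMtools 1.8, bcl2fastq 2.19 and Cufflinks. The authors deposited raw counts per gene symbol, but the sources used here do not give the annotation or strand setting, so the 11 members that overlap another protein-coding gene in RefSeq are uncertain. The labelled treatment set the groups, and replicates are numbered in accession order. Rats were housed 3 per cage, and cages were not analysed here. No library repeated another (chi-square divided by its degrees of freedom 2.69 to 8.36 in 30 same-group pairs).

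Genes were kept by edgeR's filterByExpr (minimum count 10, total 15), TMM-scaled and fitted with glmQLFit and glmQLFTest (edgeR 4.0.16, R 4.3.3), at an adjusted p of 0.05. The common coefficient of variation was 8.05%. Single values were compared over all 924 splits of the rats, whose smallest p is 0.00216. Of 302 list symbols, 286 matched directly, 6 through a RefSeq synonym and 10 had no row. The members and lists were chosen with earlier results of these data known. Any member could be named, with up to 4 called genes in each direction per other list, by smallest adjusted p, and 8 genes chosen by name. A called gene of the other lists is not reported here. Alternatives were other scalings, filters and thresholds, DESeq2 1.42.0, limma-voom 3.58.1, a clock covariate and leaving out rats. The fit was tested on simulated data.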

Additional observations from a re-analysis of the deposited data

Results flagged for a closer look

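Over the 96 groups of 6 values (48 genes in each group of rats), 9 held a rat whose gap to the nearest other rat was a large share of the group's range (past Dixon's 95% critical value), where chance alone flags about 5% of groups. In air, replicate 5 stood high for Gins1 at 2.38 CPM (nearest rat 1.62), for Ccne1 at 1.71 (0.839), for Ccnb2 at 2.38, for Bub1b at 5.51 (3.58) and for Cenpe at 8.55 (4.66). Mcm3 stood high in air replicate 4 at 19.6 CPM (nearest rat 17.1), and Mcm4 low in air replicate 3 at 23.3 CPM (25.5). In CNC, Ccnb2 stood high in replicate 2 at 1.5 CPM (1.22) and Ube2c low in replicate 3 at 1.7 CPM (2.62). Air replicate 5 thus gave 5 of the 9 values.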

How the results depend on the processing

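No paired analysis was possible because the labels give no replicate numbers shared by the groups. The main counts (genes called, CNC against air, and members called) were 3691 genes, 15 replication genes, 6 mitosis genes and 49 genes of the other lists. At an adjusted p of 0.01 these were 2146, 7, 2 and 23, and at 0.10 the mitosis count was 11, beside 4678 of all genes. With the clock covariate they were 882, 0, 1 and 7. Leaving out 1 rat at a time gave from 3091 to 3722 genes, from 12 to 15 replication genes, from 3 to 13 mitosis genes, from 34 to 54 genes of the other lists, and from -0.03 to 0.09 for the difference of the class medians. Air replicates 4 and 5 were also left out together, after seeing the data, because their heart muscle markers were highest. Without them 15 replication and 9 mitosis genes were called, beside 3592 of all genes, and Pcna was not (adjusted p = 0.0655). Other scalings, filters and tools gave from 13 to 15 replication and from 5 to 7 mitosis genes, beside from 3406 to 3834 of all genes.

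The estimates of 6 genes changed sign. Mcm7 was at -0.0043 with upper-quartile scaling, -0.014 with library size alone, -0.011 without air replicate 6 and -0.016 without CNC replicate 3, within a range up to 0.034 over the rats left out in turn. Ccnb2 was at -0.0014 without air replicate 2, -0.042 without air replicate 4 and -0.0042 without CNC replicate 2, within a range up to 0.38. With the clock covariate Aurkb, at 0.36 without it, was at -0.25, Ccnd2 at 0.34 and Cdk4 at -0.027. Without air replicate 2, Ccnd2 was at 0.0075 and Cdk2 at 0.0064, the upper ends of ranges that began at -0.078 and -0.066. The cause was not tested. Low counts limit Ccne1, Ccnb2 and Cdc6, which had as few as 3, 7 and 5 counts in a rat.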
